A study of Sus scrofa with 32 samples.

Results

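The data described here are the transcript counts of 9 chemokine and chemokine receptor genes in pig endometrium: the ligands CCL2, CCL5, CCL28, CXCL12, CXCL14, CXCL16 and CX3CL1, the receptor CXCR4 and the atypical receptor ACKR3. The genes were matched by pig symbol to the NCBI gene IDs of the count tables, and all 9 were found among 30185 counted genes. Endometrium was collected on Day 14 from prepuberal gilts whose ovulation had been induced with eCG followed by hCG. Pregnant gilts had been inseminated with semen and cyclic gilts with the sperm-free supernatant of semen from the same boar, and the pregnant tissue came from hyperemic implantation zones after the conceptuses had been taken off. From frozen sections stained with cresyl violet, 4 compartments were cut by laser capture microdissection, namely the epithelium of the lumen (LE) and of the glands (GE), the vessels (BV) and the stroma (S). The libraries came from 4 cyclic gilts, named C128, C40, C42 and C78 after the numbers in the labels, and 4 pregnant gilts, P139, P39, P41 and P43, with 1 library for each gilt and compartment. No GE counts of gilt P41 were available here, which leaves n = 3 for pregnant GE, n = 4 for all other groups and 31 libraries.

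Chemokines are small secreted or membrane-bound proteins that bind receptors on leukocytes and other cells and direct their migration. They are classed by the spacing of the cysteines near the amino terminus into CC, CXC and CX3C ligands. Most receptors signal through inhibitory G proteins and are then bound by arrestins, whereas atypical receptors such as ACKR3 remove ligands without G-protein signaling. In the uterus, chemokines are known for placing NK cells, T cells, macrophages and plasma cells in the mucosa, and CXCL12 with CXCR4 is also studied at the contact of conceptus and endometrium.

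The coding stretches below are shown because they hold the feature that puts each gene in its class. They were read from the Sscrofa11.1 genome and its NCBI annotation, all are coding exon sequence, and each is given 5′ to 3′ on the strand of the gene. Capitals mark the cysteine codons of the CC, CXC or CX3C motif in the ligands, and the codons of the DRY motif, which follows the third transmembrane helix, in the receptors.
CCL2, NCBI gene 397422, chr12:40799061-40799102, minus strand: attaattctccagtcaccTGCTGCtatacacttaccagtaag
CCL5, NCBI gene 396613, chr12:39654234-39654275, plus strand: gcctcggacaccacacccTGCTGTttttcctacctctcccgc
CCL28, NCBI gene 554303, chr16:27993759-27993800, minus strand: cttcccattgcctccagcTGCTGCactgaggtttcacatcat
CXCL12, NCBI gene 494460, chr14:91520787-91520831, plus strand: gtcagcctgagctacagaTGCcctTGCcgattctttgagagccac
CXCL14, NCBI gene 494467, chr2:137812606-137812826, minus strand: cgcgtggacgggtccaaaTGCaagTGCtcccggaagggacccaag
CXCL16, NCBI gene 396735, chr12:52146582-52146626, plus strand: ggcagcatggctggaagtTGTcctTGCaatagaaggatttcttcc
CX3CL1, NCBI gene 100621027, chr6:19318642-19318692, plus strand: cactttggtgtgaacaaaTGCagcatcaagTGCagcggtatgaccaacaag
CXCR4, NCBI gene 396659, chr15:15666026-15666070, plus strand: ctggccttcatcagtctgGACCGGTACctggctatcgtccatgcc
ACKR3, NCBI gene 100515346, chr15:136381036-136381080, plus strand: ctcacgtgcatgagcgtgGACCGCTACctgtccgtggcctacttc
The CXCL14 stretch joins 2 exons, so its coordinates also span an intron. The stretches of CXCR4 and ACKR3, which both bind CXCL12, shared 28 of 45 bases.

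Library totals lay between 2415216 and 7081556 counts, and 3 counts summed over a group, taken as the floor, correspond to 0.173 to 0.279 CPM. A gene was tested in a compartment where the authors' filtered table of that compartment held it, which held for 6 members in LE, for 3 in GE, for 8 in BV and for 7 in S, and for CXCL16 and ACKR3 in all 4. Marker genes were summed to describe the captured compartments. The summed level of 6 epithelial markers was 2194 to 3122 CPM in LE and 1467 to 1893 CPM in GE, and at most 423 CPM in BV or S. The sum of 7 endothelial markers was 1451 to 2887 CPM in BV, but also 130 to 1038 CPM in LE and 537 to 2701 CPM in S. The sum of 6 fibroblast markers was 4317 to 16705 CPM in LE and 3163 to 7990 CPM in GE, above the epithelial sum in each of these libraries. It was 24059 to 86701 CPM in BV and 35845 to 105005 CPM in S, which overlapped. LE libraries thus also held endothelial marker RNA, LE and GE libraries held fibroblast marker RNA, and the markers do not show pure captures. In captured tissue fewer cells of a type and less RNA per cell cannot be told apart. In BV, the epithelial sum was 2.43 to 42.7 CPM in cyclic and 142 to 261 CPM in pregnant gilts, and the sum of 6 smooth muscle markers was 5670 to 17392 CPM in cyclic and 1027 to 6617 CPM in pregnant gilts. The smooth muscle sum in S was 418 to 1179 CPM, which overlapped that of pregnant BV. Leukocyte markers (15 genes) summed to 34.3 to 49.5 CPM in cyclic and 105 to 148 CPM in pregnant GE.

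The members separated first by compartment. CXCL16 was the transcript of LE, CCL28 that of GE, and CCL2, CX3CL1 and CXCL14 were highest in BV, while CXCL12 was about equally high in BV and S. Of 54 comparisons of a member between a pair of compartments, 29 passed a false discovery rate of 1% in a joint edgeR quasi-likelihood fit of all libraries with the gilt as a block. A gene entered this fit where the filtered table of at least 1 compartment held it. All members but CXCL16 and ACKR3 were missing from some of these tables, though never from that of their highest compartment. CXCL14 was held for BV alone, CCL2 for BV and S, and CCL28 for GE and BV. Calls against a compartment without the gene were thus partly set by this rule and only describe levels. In this fit 7 of 9 members differed between LE and GE, where 41.4% of all 13887 genes tested differed, and 5 of 9 between LE and BV, where 49.2% did. Between LE and S 3 of 9 differed against 50.6% of genes, between GE and BV 6 of 9 against 58.3%, and between GE and S 8 of 9 against 59.3%. No member was called between BV and S, where 7.19% of genes were, and 2 members (CXCL14 and CXCR4) had an unadjusted p under 0.05 there, as did 27.5% of genes. The members' share was above the background between LE and GE and between GE and S and nearer to it elsewhere, and 9 genes are too few to read more from the counts.

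**Figure D1:**
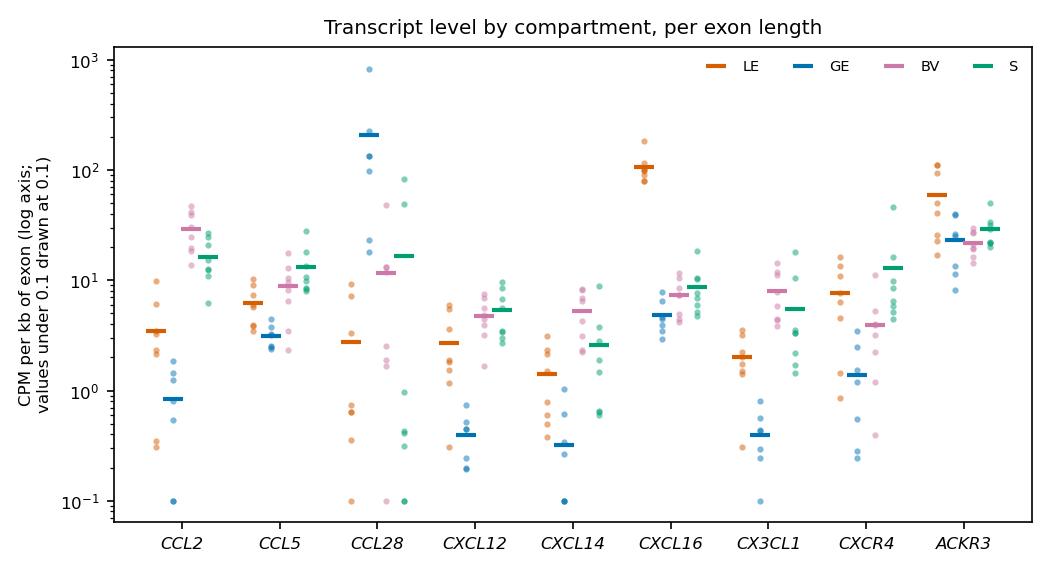
Transcript level of the 9 members in LE, GE, BV and S as CPM per kb of exon on a log axis, with all libraries normalized together. Small points are single libraries and bars are means over 7 (GE) or 8 gilts. CCL28 in GE (mean 209 CPM per kb) and CXCL16 in LE (mean 106 CPM per kb) stand highest, and the mean of ACKR3 lies above that of CXCR4 in every compartment.

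CXCL16, a transmembrane ligand that can be shed and whose receptor is CXCR6, had 182 ± 57.6 CPM in LE (SD, n = 8), against 15.01 ± 7.74 CPM in S, 12.6 ± 4.78 CPM in BV and 8.29 ± 3.02 CPM in GE. LE was highest in 8 of 8 gilts among LE, BV and S, and in 7 of 7 gilts with GE. The level in LE was 23.0-fold that in GE (log2 difference 4.52 ± 0.23 SE, edgeR quasi-likelihood adjusted p = 1.8e-11), 14.8-fold that in BV and 12.6-fold that in S. GE lay below S by a log2 difference of 0.87 in size (-0.87 ± 0.22 SE, adjusted p = 0.00123), a call that was lost without gilt P139 (adjusted p = 0.0256), and GE did not pass against BV (adjusted p = 0.0143). The annotated CXCL16 coding sequence is long ahead of the CXC motif, so its exon length, and with it the level per kb, depends on the gene model. The transcript of its receptor CXCR6 was low in all compartments, with at most 10 counts in any library.

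CCL28, a mucosal epithelial chemokine that binds CCR10 and CCR3, had 186 ± 252 CPM in GE (n = 7) and was highest there in 7 of 7 gilts. Its level in GE was 66.0-fold that in LE (log2 difference of LE minus GE -6.04 ± 0.93 SE, edgeR quasi-likelihood adjusted p = 1.63e-05), 21.7-fold that in BV and 27.2-fold that in S. Outside GE the libraries did not resemble each other. In S, cyclic gilt C128 had 42.5 CPM and pregnant gilt P41 had 73.8 CPM, while the other 6 libraries had at most 0.838 CPM. In BV, pregnant gilt P41 was also the highest, with 40.7 CPM, and cyclic gilt C42 had 0 counts. The epithelial marker sum in S was 160 CPM in gilt C128 and 423 CPM in gilt P41, but also 144 CPM in gilt C78 and 254 CPM in gilt P139, which had little CCL28. These markers were high in both LE and GE, so their sum does not separate glandular from luminal RNA. CPN1, THEM5 and AGMO, the genes most like CCL28 over these same libraries, had 19, 22 and 49 counts in S of gilt C128. They had 24, 12 and 83 counts in S of gilt P41 and at most 2 counts each in the other S libraries. They were picked by that likeness, and the part of epithelial or glandular RNA was not tested. Among LE, BV and S, no pair was called for CCL28 (lowest adjusted p = 0.189). The calls of GE held with each gilt left out, but the sizes moved: the log2 difference of LE minus GE was -8.19 without gilt P139, -7.14 without C78 and -5.33 without P41, that of GE minus S was 6.09 without C128 and 7.07 without P41, and that of GE minus BV was 5.16 without C40. The difference of GE from S lost its call without the replicate block (log2 difference 2.92, adjusted p = 0.0118). CCR10 had 0 counts in all LE libraries and at most 3 counts in any library, so its level in LE lies under the floor of 0.189 CPM in cyclic and 0.173 CPM in pregnant gilts.

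CXCL12, the ligand that retains and attracts CXCR4-bearing cells, had 35.9 ± 17.9 CPM in S, 31.7 ± 12.7 CPM in BV, 18.1 ± 13.8 CPM in LE and 2.65 ± 1.34 CPM in GE. GE was lower than S by 13.6-fold, than BV by 12.0-fold and than LE by 6.30-fold (edgeR adjusted p = 4.35e-07, 9.14e-07 and 8.49e-05). BV against S was not called (log2 difference -0.19 ± 0.37 SE, adjusted p = 0.794), and LE against BV (adjusted p = 0.0398) and LE against S (adjusted p = 0.0164) missed the 1% threshold. CXCR4, its signaling receptor, had 13.6 ± 14.8 CPM in S, 8.15 ± 5.87 CPM in LE, 4.17 ± 3.55 CPM in BV and 1.48 ± 1.28 CPM in GE. GE was lower than S by 13.1-fold (adjusted p = 7.75e-05) and than LE by 7.98-fold (adjusted p = 0.00144, and 0.0148 without gilt P39), and no other pair passed. CXCR4 in GE was below the filter, with 43 counts summed over cyclic and 5 over pregnant libraries. ACKR3, which binds CXCL12 and removes it, had 124 ± 84.4 CPM in LE, 60.9 ± 21.4 CPM in S, 49.2 ± 27.2 CPM in GE and 46.0 ± 11.7 CPM in BV. LE was 2.35-fold higher than BV (adjusted p = 0.00469) and 2.32-fold higher than GE (adjusted p = 0.00951), but did not pass against S (adjusted p = 0.0732, and 0.00192 without gilt C78). The call against GE held without gilt C78 alone and was lost without any of the other gilts (adjusted p = 0.01003 to 0.0462), with RLE normalization (0.0148), among genes of all 4 filtered tables (0.0121) and with no filter (0.0195). The call against BV was lost without gilt C40, C42, P41 or P43 (adjusted p = 0.0120 to 0.0238). No pair among GE, BV and S was called for ACKR3.

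Per kb of exon, ACKR3 exceeded CXCR4 in each compartment, with 58.9 against 7.68 CPM per kb in LE, 23.3 against 1.39 in GE, 21.8 against 3.93 in BV and 28.8 against 12.8 in S. The annotated exons of CXCR4 hold coding sequence only (1062 bases), so its level per kb is over coding length, unlike that of ACKR3. CXCL12 had 2.71 CPM per kb in LE and 0.398 in GE, under both receptors in LE and GE. Its order against CXCR4 depends on the length used, as the annotated exons of CXCL12 hold 6661 bases and its coding sequence 546. In plain CPM, CXCL12 lay above CXCR4 in LE (18.1 against 8.15 CPM) and in GE (2.65 against 1.48 CPM). Within a library the level of ACKR3 per kb was 0.734 to 102 times that of CXCR4, and it was the higher of the pair in 30 of 31 libraries. The exception was S of pregnant gilt P139, with 33.8 CPM per kb of ACKR3 and 46.03 of CXCR4.

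CCL2, which recruits monocytes through CCR2, had 21.8 ± 9.16 CPM in BV, 12.1 ± 5.40 CPM in S, 2.58 ± 2.35 CPM in LE and 0.626 ± 0.531 CPM in GE. BV exceeded LE by 9.46-fold and GE by 32.7-fold, and S exceeded LE by 5.42-fold and GE by 18.7-fold, all past the threshold (adjusted p at most 1.36e-04). CCL2 was below the filter in LE and GE. It had 11 counts summed over cyclic and 9 over pregnant GE libraries, so the sizes against GE rest on few counts. Without gilt P139 the log2 difference of GE minus BV was -5.85 and that with all gilts -5.03. BV against S was not called (log2 difference 0.80 ± 0.41 SE, adjusted p = 0.209), nor was LE against GE (adjusted p = 0.0245, and 0.00156 without gilt P139). CX3CL1, a membrane-anchored ligand that tethers CX3CR1-bearing leukocytes to endothelium, had 29.3 ± 14.9 CPM in BV, 20.3 ± 21.6 CPM in S, 7.33 ± 3.79 CPM in LE and 1.46 ± 0.938 CPM in GE. BV was highest in 7 of 8 gilts among LE, BV and S. GE was lower than all other compartments (adjusted p at most 3.91e-04), LE was lower than BV by 3.37-fold (adjusted p = 0.00144), and BV against S was not called (adjusted p = 0.270). CX3CL1 in GE was below the filter, with 36 counts summed over cyclic and 11 over pregnant libraries. CXCL14, a ligand of epithelia and stroma that attracts monocytes and dendritic cells, had 8.99 ± 4.38 CPM in BV, 4.43 ± 4.77 CPM in S, 2.45 ± 1.76 CPM in LE and 0.556 ± 0.672 CPM in GE. BV was 3.65-fold higher than LE and 21.0-fold higher than GE (adjusted p = 0.00160 and 3.06e-06), with no call against S (adjusted p = 0.107). CXCL14 was below the filter in all compartments but BV. In GE it had 2 counts summed over cyclic and 13 over pregnant libraries, so the sizes against GE rest on few counts. LE was 5.75-fold above GE (adjusted p = 0.00354), a call lost without gilt C128, C42, C78 or P39 (adjusted p = 0.0113 to 0.0391). Without gilt C40 its log2 difference of LE minus GE moved from 2.52 to 3.72, that of GE minus BV from -4.39 to -5.42 and that of GE minus S from -3.26 to -4.44, and the last was -2.60 without gilt P139. CCL5, a ligand that attracts T cells and NK cells, spanned a narrow range, from 9.57 ± 4.997 CPM in S over 6.52 ± 3.69 CPM in BV and 4.54 ± 1.86 CPM in LE to 2.30 ± 0.570 CPM in GE. GE was lower than S by 3.76-fold (adjusted p = 7.66e-05) and than BV by 2.60-fold (adjusted p = 0.00255, and 0.0117 to 0.0165 without gilt C40, C42 or P39). LE was lower than S by 2.07-fold (adjusted p = 0.00732), a call that held without gilt C78 or P41 and was lost without any of the other gilts (adjusted p = 0.0101 to 0.0364).

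The genes with the pattern most like each member were taken by Pearson correlation of log2 CPM over the 31 libraries, among 12058 genes with a mean of at least 10 CPM in a group. These libraries share gilts, compartments and depth, so the values are descriptions. CXCL12 followed BCL6B (0.953), SH3BP4 and CALCRL, and CXCL14 followed RCAN2 (0.856), TIE1 and DOCK4. CX3CL1 followed LOC100514494 (0.936), ITGA7 and MCAM, and CCL2 followed TM4SF1 (0.950), PPM1F and EHD2. For CCL28 they were CPN1 (0.953), THEM5 and AGMO, and for CXCL16 TCTN3 (0.955), LOC100158011 and ACOT7. CCL5 followed CD2 (0.849) and CORO1A, genes of T cells and other leukocytes. The receptors had weaker partners, with SLC39A10 (0.803), RGCC and P2RY1 for CXCR4, and BCAT1 (0.750), LOC110260073 and LOC100625810 for ACKR3. The partners depended on the measure: by Spearman correlation 2 of 3 were shared for CCL5, CCL28, CXCL14 and CX3CL1, 1 of 3 for CCL2, CXCL12, CXCL16 and CXCR4, and 0 of 3 for ACKR3.

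**Figure D2:**
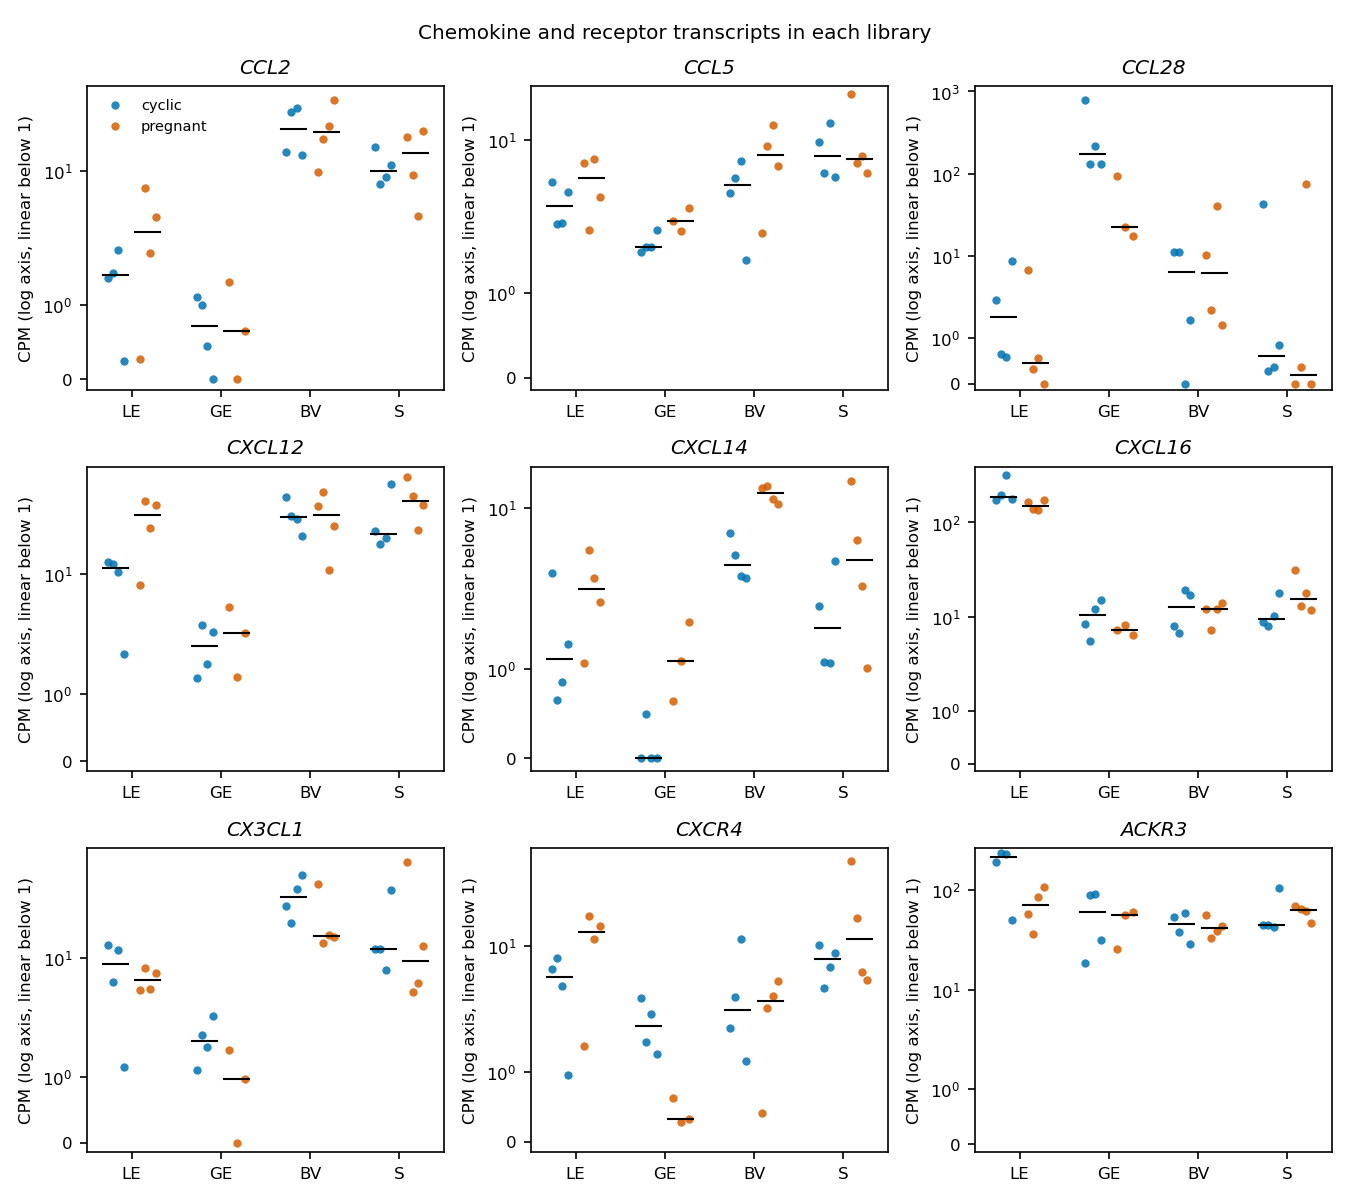
CPM of the 9 members in every library, on a log axis that is linear below 1 CPM, normalized within each compartment. Points are single gilts, cyclic in blue and pregnant in orange, and black bars are medians. In GE all pregnant libraries lie below all cyclic ones for CCL28, in BV all pregnant libraries lie above for CXCL14, and most other groups overlap. The share of all genes with such a separation is not given here.

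Pregnant and cyclic gilts were then compared within each compartment, which asks whether the conceptus on Day 14 goes with a change in these genes. None of the 24 tests of a member passed. A call in LE needed a 1% false discovery rate with edgeR's quasi-likelihood test. The largest unadjusted p called that way, 3.28e-04, was the limit for the other 3 compartments. This rule follows the study's methods. In LE 0 of 6 members were called, against 2.02% of 12002 genes called higher and 1.29% lower in pregnant gilts, in GE 0 of 3 against 0.512% and 0.235% of 11905, in BV 0 of 8 against 1.3% and 0.559% of 11096, and in S 0 of 7 against 0.184% and 0.109% of 11935. A count of 0 among so few members lies near that background. At an unadjusted p under 0.05 there were 2 members for LE, 1 for GE, 1 for BV and 0 for S, against 26.9%, 23%, 28.5% and 14.5% of all genes. The GLM with robust dispersions that the study used called 2 members for LE, 1 for GE, 1 for BV and 0 for S, against 11.8%, 6.66%, 11% and 3.16% of all genes. DESeq2 called 0, 1, 1 and 0 members, against 11.2%, 6.64%, 8.5% and 2.6% of genes. The median log2 fold change of the members was 0.11 for LE, -0.50 for GE, -0.04 for BV and 0.36 for S. No gilt was in both groups, so p-values measure the spread between gilts.

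**Figure D3:**
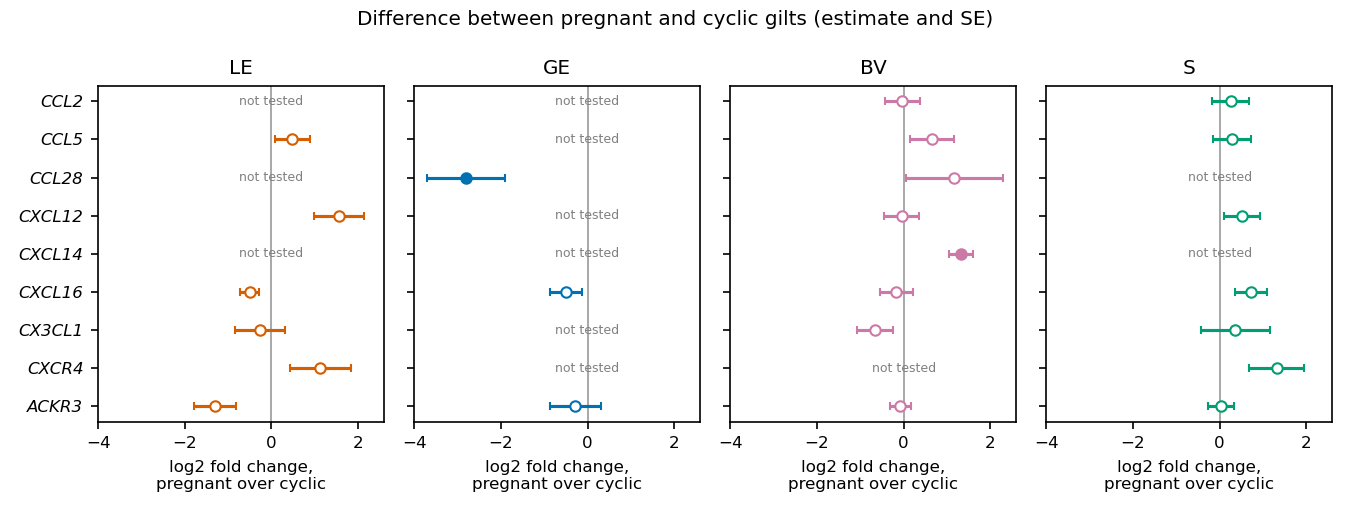
Log2 fold change of pregnant over cyclic gilts for each member and compartment with its SE, from edgeR's quasi-likelihood fit. Filled points are members whose cyclic and pregnant libraries do not overlap, which holds for CCL28 in GE and CXCL14 in BV. The share of all genes tested whose groups do not overlap is not given here, so the filling only describes these values. The label "not tested" marks members that the filtered table of the compartment does not hold.

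CXCL14 in BV came closest. Its level was 7.04, 5.09, 3.78 and 3.67 CPM in cyclic gilts C128, C40, C42 and C78, and 13.5, 13.8, 11.4 and 10.7 CPM in pregnant gilts P139, P39, P41 and P43. All 4 pregnant libraries lay above all 4 cyclic ones. For this and the genes below, the share of all genes tested with such a separation is not given here. The log2 fold change was 1.32 ± 0.28 (SE), or 2.49-fold, with an unadjusted p of 8.2e-04 over the limit of 3.28e-04 and an edgeR adjusted p of 0.0238. Both the robust GLM (adjusted p = 7.45e-04) and DESeq2 (adjusted p = 0.00164) called it, and its log2 fold change stayed between 1.20 and 1.54 when each library was left out. In the same BV libraries the epithelial marker sum of all pregnant gilts lay above that of all cyclic gilts, and the smooth muscle sums overlapped, with ranges given above. CXCL14 itself was lower in LE (2.45 CPM) and GE (0.556 CPM) than in BV (8.99 CPM, all on the joint scale), and the part of the other cell types in the difference was not tested. In S, CXCL14 had 2.47, 1.10, 1.08 and 4.69 CPM in cyclic and 14.8, 6.32, 3.28 and 1.01 CPM in pregnant gilts, which overlapped. In GE it was below the filter, with 0, 2, 0 and 0 counts in cyclic and 3, 4 and 6 counts in pregnant gilts.

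CCL28 in GE showed the widest difference of the 24 tests. It had 783, 129, 220 and 130 CPM in cyclic gilts C128, C40, C42 and C78, and 94.5, 22.1 and 17.5 CPM in pregnant gilts P139, P39 and P43. The highest pregnant library lay below the lowest cyclic one, but each group spanned more than 5-fold. The log2 fold change was -2.81 ± 0.89 (SE), or 7.002-fold lower in pregnant gilts, with an unadjusted p of 0.0138 and an edgeR adjusted p of 0.121. DESeq2 (adjusted p = 0.00516) and the robust GLM (adjusted p = 1.18e-05) called it. Cyclic gilt C128 alone carried 3418 counts, and without it the log2 fold change was -1.82, while without pregnant gilt P139 it was -3.98. The epithelial marker sum of the 2 groups overlapped in GE (1531 to 1893 CPM in cyclic, 1467 to 1709 CPM in pregnant gilts), and the leukocyte sum was higher in pregnant GE. In BV the CCL28 log2 fold change was 1.17 ± 1.12 (SE, adjusted p = 0.529), and -0.41 without pregnant gilt P41.

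CXCL12 in LE had 12.4, 12.0, 10.3 and 2.16 CPM in cyclic gilts C128, C40, C42 and C78, and 8.10, 39.9, 23.9 and 37.1 CPM in pregnant gilts P139, P39, P41 and P43. Pregnant gilts P39, P41 and P43 lay above every cyclic gilt, and gilt P139 lay among them. The log2 fold change was 1.56 ± 0.58 (SE), with an unadjusted p of 0.0237, an edgeR adjusted p of 0.115 and, without gilt P139, a log2 fold change of 1.86 (adjusted p = 0.0612). CXCR4 in LE went with it, at 6.60, 8.04, 4.86 and 0.959 CPM in cyclic and 1.62, 17.4, 11.5 and 14.6 CPM in pregnant gilts in the same order. Again 3 of 4 pregnant gilts lay above the cyclic ones and gilt P139 did not. The log2 fold change of CXCR4 was 1.13 ± 0.70 (SE, adjusted p = 0.340), and 1.48 without gilt P139 (adjusted p = 0.141). CCL2 in LE was below the filter, with 1.58, 1.74, 2.57 and 0.240 CPM in cyclic and 0.270, 7.40, 2.42 and 4.55 CPM in pregnant gilts, and 1 to 23 counts a library. Gilts P39 and P43 lay above every cyclic gilt, and P139 and P41 did not.

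Endothelial marker RNA in LE moved with these genes. The sum of the 7 markers was 312, 730, 677 and 130 CPM in cyclic gilts C128, C40, C42 and C78 and 430, 1038, 822 and 816 CPM in pregnant gilts P139, P39, P41 and P43. The lowest sums of each group, in gilts C78 and P139, were found in the libraries with the least CXCL12 and CXCR4 of their group. Gilts C40 and C42, however, had sums close to those of gilts P41 and P43 with less CXCL12 (12.0 and 10.3 CPM against 23.9 and 37.1 CPM). Leukocyte and fibroblast marker RNA moved as well. The leukocyte sum was 102, 76.3, 112.1 and 56.3 CPM in the cyclic and 115.1, 188, 138.9 and 107.7 CPM in the pregnant LE libraries in the same order, lowest in gilt C78, highest in gilt P39 and lowest of the pregnant gilts in gilt P43. The fibroblast sum was 4317 to 14169 CPM in cyclic and 10509 to 16705 CPM in pregnant LE, with its ends in the same gilts C78 and P39. The part of endothelial, leukocyte and fibroblast RNA in the differences was not tested.

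**Figure D4:**
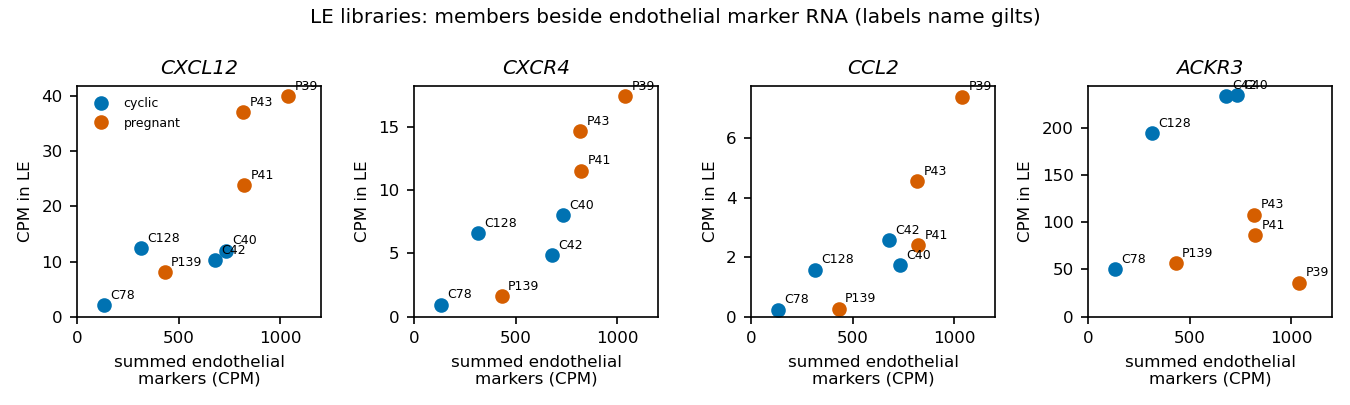
CPM of CXCL12, CXCR4, CCL2 and ACKR3 in the 8 LE libraries against the summed CPM of 7 endothelial markers in the same library, cyclic in blue and pregnant in orange, with the gilt beside each point. CXCL12, CXCR4 and CCL2 are lowest in gilt C78, which has the lowest endothelial sum (130 CPM), and highest in gilt P39, which has the highest (1038 CPM), whereas ACKR3 is highest in gilts C128, C40 and C42.

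ACKR3 in LE lay the other way. It had 194, 234, 234 and 50.1 CPM in cyclic gilts C128, C40, C42 and C78, and 57.0, 36.1, 86.1 and 108 CPM in pregnant gilts P139, P39, P41 and P43. Cyclic gilts C128, C40 and C42 lay above every pregnant gilt and gilt C78 below most of them. In LE the epithelial marker sum was 2573 to 3122 CPM in cyclic and 2194 to 2428 CPM in pregnant gilts, without overlap, and its part in the differences of ACKR3, and of CXCL16 and ACKR4 below, was not tested. The log2 fold change was -1.31 ± 0.49 (SE), with an unadjusted p of 0.0242 and an edgeR adjusted p of 0.116, and -1.62 without gilt C78 (adjusted p = 0.0173). The robust GLM called both ACKR3 (adjusted p = 0.00315) and CXCL12 (adjusted p = 0.00872) in LE, and DESeq2 called neither (adjusted p = 0.0436 and 0.0465). In the other compartments the log2 fold change of ACKR3 was -0.28 ± 0.58 SE (GE), -0.07 ± 0.25 SE (BV) and 0.03 ± 0.30 SE (S).

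The ratio of ACKR3 to CXCR4, both per kb of exon, was 14.8, 14.6, 24.2 and 26.3 in LE of cyclic gilts C128, C40, C42 and C78. For pregnant gilts it was 17.7 in P139 but 1.04, 3.76 and 3.71 in P39, P41 and P43. In S the ratio was 2.20 to 5.91 in cyclic and 0.734 to 4.95 in pregnant gilts. CXCR4 in GE was below the filter, with 17, 7, 13 and 6 counts in cyclic and 3, 1 and 1 counts in pregnant gilts, so that all pregnant libraries lay below all cyclic ones. Fitted without the filter, its log2 fold change in GE was -2.46 ± 0.71 (SE, unadjusted p of 0.00567, edgeR adjusted p = 0.125).

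CXCL16, the LE transcript, had 171, 196, 316 and 179 CPM in cyclic gilts C128, C40, C42 and C78 and 163, 138, 136 and 174 CPM in pregnant gilts P139, P39, P41 and P43. The groups overlapped, with a log2 fold change of -0.50 ± 0.22 (SE, unadjusted p of 0.0501, edgeR adjusted p = 0.186). In GE it was the same size, -0.50 ± 0.36 (SE, adjusted p = 0.450). In S it had 8.73, 7.98, 10.1 and 17.8 CPM in cyclic and 31.0, 13.0, 17.7 and 11.8 CPM in pregnant gilts, and the log2 fold change was 0.72 ± 0.37 (SE, adjusted p = 0.415). The epithelial marker sum in S was 160, 13.2, 10.1 and 144 CPM in cyclic and 254, 30.8, 423 and 95.3 CPM in pregnant gilts in the same order. Its part in the CXCL16 difference in S was not tested. The log2 fold change of CXCL16 in BV was -0.16 ± 0.37 (SE).

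The members highest in vessels and stroma also varied between gilts of a group. CX3CL1 in S had 65.2 CPM in pregnant gilt P139 and 38.0 CPM in cyclic gilt C78, and 5.20 to 12.8 CPM in the other 6 libraries. These 2 libraries also had the lowest fibroblast marker sums of their groups (39784 and 35845 CPM) and the highest endothelial ones (2701 and 1643 CPM), and the part of endothelial RNA was not tested. Its log2 fold change in S was 0.36 ± 0.80 (SE, adjusted p = 0.880) and -1.13 without gilt P139. In BV, CX3CL1 had 27.5, 20.1, 38.9 and 51.0 CPM in cyclic and 42.4, 13.4, 15.7 and 15.3 CPM in pregnant gilts P139, P39, P41 and P43. There the log2 fold change was -0.66 ± 0.41 (SE, adjusted p = 0.324), and -1.20 without gilt P139 (adjusted p = 0.0409). The smooth muscle sum in BV was 6062, 5670, 7936 and 17392 CPM in cyclic gilts C128, C40, C42 and C78. It was 6617, 1027, 2395 and 1282 CPM in pregnant gilts P139, P39, P41 and P43. The part of smooth muscle RNA in this difference, and in its change without gilt P139, was not tested. CXCL12 in S was highest in the same gilts, at 55.3 CPM in gilt C78 and 63.2 CPM in gilt P139, with 17.6 to 43.8 CPM in the others and a log2 fold change of 0.52 ± 0.41 (SE, adjusted p = 0.601). CXCR4 in S had 10.2, 4.68, 6.84 and 8.88 CPM in cyclic and 47.7, 16.7, 6.23 and 5.39 CPM in pregnant gilts. Its log2 fold change of 1.31 ± 0.65 (SE, adjusted p = 0.390) was 0.28 without gilt P139. CCL5 in S had 5.70 to 13.0 CPM in cyclic and 6.06 to 19.8 CPM in pregnant gilts, and its log2 fold change was 0.48 in LE, 0.66 in BV and 0.29 in S (adjusted p = 0.436 to 0.809). CCL2 had a log2 fold change of -0.03 ± 0.39 (SE) in BV and 0.26 ± 0.42 (SE) in S, and CXCL12 in BV -0.04 ± 0.40 (SE).

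Whether the difference between pregnant and cyclic gilts itself varied over the compartments was tested by an interaction over all 4 in the joint fit. It passed for 0 of 9 members at a false discovery rate of 1%, against 1.94% of 13887 genes. CXCL16 had an unadjusted p of 0.0203 (edgeR adjusted p = 0.137) as the only member under 0.05, where 22.5% of genes lay, and its largest pairwise term, LE against S, was -1.23 ± 0.37 SE (adjusted p = 0.0869). CXCR4 followed (adjusted p = 0.258), then CXCL12 (0.422) and ACKR3 (0.504), so the differences seen in LE are not shown to be particular to LE. Within the states, CXCR4 differed between LE and GE in pregnant gilts (log2 difference 4.86, edgeR adjusted p = 0.00267) and was not called in cyclic gilts (1.13, adjusted p = 0.283), but the difference between these values did not pass (3.74 ± 1.47 SE, adjusted p = 0.185). The pregnant GE libraries held 5 counts of CXCR4 in all, below the filter, so the sizes that use them rest on few counts. CXCL12 was lower in LE than in BV in cyclic gilts (-1.80, adjusted p = 0.00903) and was not called in pregnant gilts (-0.05, adjusted p = 0.949), and again the change was not called (1.75 ± 0.76 SE, adjusted p = 0.169). ACKR3 was higher in LE than in GE in cyclic gilts (1.80, adjusted p = 0.00599) and not called in pregnant gilts (0.62, adjusted p = 0.405), with an adjusted p of 0.457 for the change.

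**Figure D5:**
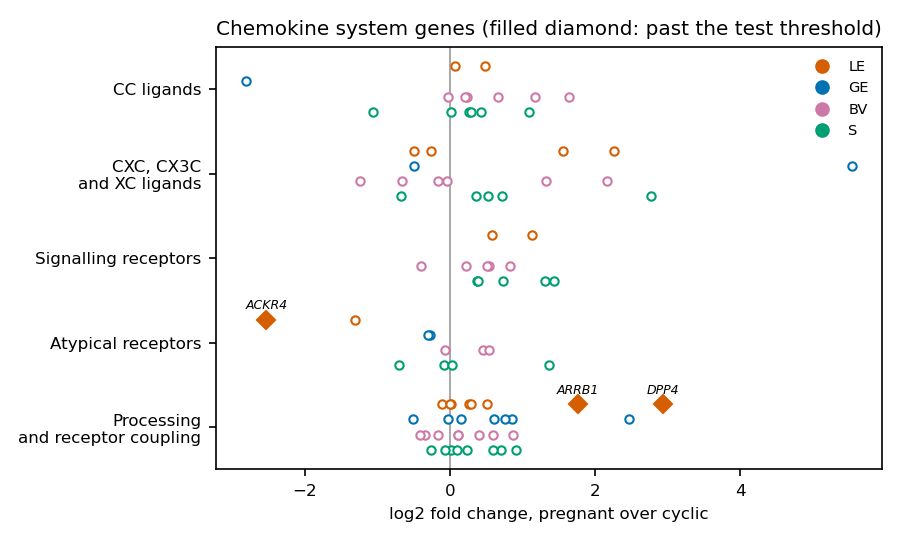
Log2 fold change of pregnant over cyclic gilts for the tested genes of the chemokine system by class and compartment. Filled diamonds are genes past the threshold of the compartment, which are ACKR4, ARRB1 and DPP4 in LE, and open circles are all others.

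The members are part of a longer list of 68 ligands, receptors, scavengers, processing enzymes and coupling proteins of the chemokine system, of which 63 were matched to a gene. In LE 18 of them were tested, 2 were called higher and 1 lower in pregnant gilts (2.02% and 1.29% of all genes were), and their median log2 fold change was 0.27 against -0.0073 over all genes tested. No gene of the list was called in GE (12 tested), BV (28 tested) or S (28 tested), where 5, 7 and 4 had an unadjusted p under 0.05, against 23%, 28.5% and 14.5% of all genes. In LE 5 of 18 had one, against 26.9%. DESeq2 called 3 genes for LE, 3 for GE, 1 for BV and 1 for S, and the robust GLM 5, 3, 2 and 1, beside the shares of all genes given above for each test. The list medians were 0.06 in GE, 0.23 in BV and 0.36 in S, against -0.0082, 0.0018 and 0.0012 over all genes.

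All 3 calls were outside the ligands. ACKR4, an atypical receptor that scavenges CCL19, CCL21 and CCL25, fell in LE from 6.86, 6.30, 4.58 and 6.47 CPM in cyclic to 1.35, 0.644, 1.28 and 0.651 CPM in pregnant gilts (log2 fold change -2.53 ± 0.38 SE, edgeR adjusted p = 0.00494). DPP4, a membrane peptidase that trims the amino terminus of CXCL12 and other chemokines, rose in LE from 4.49, 17.0, 16.9 and 14.9 CPM to 113, 57.6, 138 and 98.9 CPM (log2 fold change 2.93 ± 0.42 SE, edgeR adjusted p = 0.00396). ARRB1, an arrestin that binds activated receptors including ACKR3, rose in LE from 18.2, 24.99, 23.5 and 37.4 CPM to 101, 83.1, 71.9 and 97.3 CPM (log2 fold change 1.76 ± 0.23 SE, edgeR adjusted p = 0.00314). In each of the 3 genes the groups did not overlap, and DESeq2 and the robust GLM called all 3. With 1 library fewer, ACKR4 passed without cyclic gilt C78 alone and missed the threshold without any other library (adjusted p = 0.0107 to 0.0188). DPP4 missed it without cyclic gilt C40 or C42 or pregnant gilt P139 or P43 (adjusted p = 0.0129 to 0.0148), and ARRB1 without cyclic gilt C40 or C42 or pregnant gilt P139, P39 or P43 (adjusted p = 0.0108 to 0.0148). The interaction over the 4 compartments had an adjusted p of 0.0488 for ACKR4, 0.0395 for DPP4 and 0.0136 for ARRB1, which did not pass 1%. ARRB1 had positive log2 fold changes in the other compartments, with 2.47 ± 0.45 SE in GE, 0.59 ± 0.18 SE in BV and 0.91 ± 0.18 SE in S (edgeR adjusted p = 0.0451, 0.0721 and 0.110).

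Among the ligands outside the members, CXCL10, an interferon-induced T-cell attractant, varied widely between gilts. In S it had 32.3, 6.88, 57.2 and 24.8 CPM in cyclic and 615, 60.2, 12.8 and 127.98 CPM in pregnant gilts P139, P39, P41 and P43, and in GE 0.233 to 1.15 CPM in cyclic and 71.6, 0.560 and 28.2 CPM in pregnant gilts P139, P39 and P43. Its log2 fold change was 5.53 ± 1.23 SE in GE, 2.77 ± 1.03 SE in S and 2.16 ± 0.93 SE in BV (edgeR adjusted p = 0.0624, 0.275 and 0.162), and DESeq2 and the robust GLM called it in GE. In LE it was 2.25 ± 1.06 SE (edgeR adjusted p = 0.209). Single libraries weighed heavily in LE, S and BV. The log2 fold change of CXCL10 was 0.16 in LE and 1.16 in S without pregnant gilt P139. In BV it was 0.25 without pregnant gilt P43, which had 93.9 CPM there against 5.30 to 9.89 CPM in the other pregnant gilts. In GE it ranged from 4.31 without P139 to 6.10 without P39. CCL19, a lymphoid ligand of CCR7, was a vessel transcript with BV means of 34.2 CPM for cyclic and 39.5 CPM for pregnant gilts and at most 7.35 CPM in any other group. ACKR1, the chemokine-binding receptor of venular endothelium, had 58.8 and 80.8 CPM in BV, and none of its tests passed. Of the signaling receptors, CX3CR1, the receptor of CX3CL1, had an S mean of 3.57 CPM for cyclic and 9.74 CPM for pregnant gilts (log2 fold change 1.43 ± 0.52 SE, edgeR adjusted p = 0.260). The coupling protein GNAI2 and the sheddase ADAM10, which releases CXCL16 and CX3CL1 from the membrane, were detectable in all compartments, and neither was called. CXCR6 and CCR10 were named because they bind members, not by the rule for naming list genes.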

How the data were processed

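Low-input RNA-seq libraries were made from RNA of the captured compartments. The authors trimmed reads (Trim Galore), aligned them to Sscrofa11.1 (Hisat2), removed PCR duplicates by molecular tags (nudup) and counted reads per NCBI gene (QuasR). Versions and the CPM minimum of their filter are not given in the sources used here, and the submitters' processing notes name edgeR. The deposited values are raw counts per gene and library, in a table of all genes and a filtered table for each compartment, and the counts were used as deposited.

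Pregnancy was tested with edgeR's quasi-likelihood test (edgeR 4.0.16, R 4.3.3, TMM normalization) on each filtered table, with Benjamini-Hochberg adjusted p-values over all genes of the table, two-sided. Levels between compartments came from a joint quasi-likelihood fit of 31 libraries with the gilt as a block, since the labels give the same animal in several compartments. It covered genes in the filtered table of at least 1 compartment. Deviations from the group means correlated at 0.168 on average in 45 library pairs of the same gilt (range -0.141 to 0.375) and at -0.0550 in 135 other pairs. Deviations within a group sum to 0, so the value of the other pairs is tied to the first and is no separate comparison. No gilt was in both states, so pregnancy was tested without a block. CPM values, counts scaled to library size, were computed with TMM-scaled library sizes, within a compartment for pregnancy and jointly for levels, and divided by exon length per kb to compare genes. The precision of low values is set by totals of 2415216 to 7081556 counts, and floors cover counting error only. DESeq2 1.42.0, edgeR's GLM with robust dispersions and likelihood ratio test, RLE normalization, other filters, removal of RN18S and RN5-8S, a 5% false discovery rate and leaving out each library or gilt were alternatives.

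The 9 members, the list of 68 chemokine system genes and the marker lists were chosen with earlier results of these data known. All members were named. List genes were named where called or where among the 3 of their class with the highest mean CPM, and the 3 genes most like each member by Pearson correlation were named, apart from 1 item that is not reported here. Leukocyte markers were PTPRC, CD2, CD3E, CD8A, CD79A, MS4A1, CD14, CD68, CD163, CSF1R, ITGAM, AIF1, TYROBP, FCER1G and NKG7. Epithelial markers were EPCAM, CDH1, KRT8, KRT18, KRT19 and CLDN4, smooth muscle markers ACTA2, MYH11, CNN1, TAGLN, DES and MYLK, endothelial markers PECAM1, CDH5, VWF, KDR, TEK, CLDN5 and EMCN, and fibroblast markers COL1A1, COL1A2, COL3A1, DCN, LUM and PDGFRA. GE of pregnant gilt P41 and complete endometrium were not analysed here.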

Additional observations from a re-analysis of the deposited data

Results flagged for a closer look

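In 11 of 63 groups of 4 libraries, 1 library lay apart from the other 3 by Dixon's test. Chance gives this in about 1 in 20 groups where values are independent and normally distributed. Here the library apart was always the highest of its group, and the groups share libraries. The 11 of 63 therefore cannot be read against that rate and only list where a library stood apart. Pregnant gilt P139 was the highest of its group for CCL5 in S (19.8 CPM, next 7.87 CPM), CX3CL1 in S (65.2 CPM, next 12.8 CPM), CX3CL1 in BV (42.4 CPM, next 15.7 CPM) and CCL28 in LE (6.75 CPM, next 0.569 CPM). Cyclic gilt C78 was the highest in S for CXCL12 (55.3 CPM, next 22.4 CPM), CX3CL1 (38.0 CPM, next 12.1 CPM) and ACKR3 (104 CPM, next 44.8 CPM). CCL28 in cyclic gilt C128 stood apart in GE (783 CPM, next 220 CPM) and S (42.5 CPM, next 0.838 CPM), and in S of pregnant gilt P41 (73.8 CPM, next 0.372 CPM). CXCL14 in GE had 0.498 CPM in cyclic gilt C40 and 0 in the other cyclic gilts.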

How the results depend on the processing

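Which members were called depended on the test. By the robust GLM, the calls among members were 2 for LE, 1 for GE and 1 for BV, by DESeq2 1 for GE and 1 for BV, and by a 5% false discovery rate 1 for BV, where the main test called 0. For the list of 68 genes, the robust GLM gave 5 calls for LE, 3 for GE, 2 for BV and 1 for S, DESeq2 3 for GE, 1 for BV and 1 for S, a 5% false discovery rate 1 in GE and 1 in BV, and the fit without a filter 1 in GE. With each library left out, the list count was 0 to 3 in LE, 0 to 1 in GE and 0 to 1 in S. The cause was not tested. The 29 pairs of compartments that differed became 5 among genes of all 4 filtered tables, which hold 2 members. Some log2 fold changes changed sign. The robust GLM gave -0.39 for CX3CL1 in S. With each library left out, the range was -0.63 to 0.067 for CX3CL1 in LE, -0.58 to 0.054 for ACKR3 in GE, -0.37 to 0.20 for CCL2 in BV, -0.41 to 1.66 for CCL28 in BV, -0.36 to 0.24 for CXCL12 in BV, -0.38 to 0.11 for CXCL16 in BV, -0.23 to 0.090 for ACKR3 in BV, -0.00017 to 0.53 for CCL2 in S, -0.28 to 0.55 for CCL5 in S, -1.13 to 1.09 for CX3CL1 in S and -0.087 to 0.47 for ACKR3 in S. With each gilt left out, level differences ranged from -3.42 to 1.74 for CCL28 in LE minus S, -0.40 to 2.75 for CCL28 in BV minus S, -0.35 to 0.15 for CXCL12 in BV minus S and -0.17 to 0.33 for ACKR3 in GE minus BV.

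No paired analysis was possible for pregnancy because no gilt was in both states. Without the replicate block, 31 pairs of compartments differed and CCL28 in BV minus S was -0.63. That fit added CXCL12 and CX3CL1 between LE and S (adjusted p = 0.00683 and 0.00915) and CXCR4 between GE and BV (adjusted p = 0.00952), and lost CCL28 between GE and S (adjusted p = 0.0118).

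Genes with a few counts in a library, such as CXCL14, CXCR4 and CCL2 in GE, allow no firm statement at this depth. Endothelial and fibroblast marker RNA was present in LE and GE libraries, and its part in the levels of the members was not tested.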
